A study of Rattus norvegicus with 6 samples.

Results

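The organic anion transporters of the rat proximal tubule were followed here as 10 genes: Slc22a6, Slc22a7, Slc22a8, Slc22a12, Slc22a13, Slc22a24, Slco1a1, Slco1a6, Slco2b1 and Slco4c1. They were found on the array through the RefSeq transcript that each probe names. All 10 were present, on 19 of the 27460 probes that carry a named gene, among 15284 named genes in all. Each gene was represented by its brightest probe. All 10 of these probes were well above background on all 6 arrays, and all 10 were among the 11748 genes tested.

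The arrays measured renal cortex RNA of male Sprague-Dawley rats (Crl:CD(SD)) bought at 5 weeks of age, with 1 array per animal. Of these animals, 3 were given corn oil and 3 were given 2-amino-4-nitrophenol, an aminonitrophenol dye intermediate, in doses of 750 mg/kg/day, and both groups were dosed for 4 weeks. The comparison asks which renal transcripts differed between dosed rats and corn oil rats. The RNA came from whole cortex, so that fewer cells of a type and less RNA per cell cannot be told apart.

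Proximal tubule cells clear organic anions such as drugs, conjugated metabolites and urate from blood to urine, and reclaim some of them from urine. Carriers of the Slc22 family exchange an anion for another one held inside the cell, often a dicarboxylate, and carriers of the Slco family (the OATPs) move larger amphipathic anions such as steroid conjugates and bile acids. Uptake across the basolateral membrane, which faces the blood, is followed by exit across the brush border through ATP-driven pumps and voltage-driven carriers. Values below are log2 intensities relative to the 75th percentile of the array. Brightness differs between probes for reasons other than RNA level, so values are compared within a probe, except in the marker sums.

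The 75th percentile of the intensity ranged from 743.4 to 852.3 in corn oil rats and from 563.6 to 684.7 in treated rats, and 68.1% to 70.9% against 61.6% to 66.3% of probes were well above background. No probe was saturated. The treated arrays (row 2) shared 1 slide with corn oil replicates 1 and 3 (row 1), so that row and treatment cannot be told apart there. Corn oil replicate 2 (row 2) was alone on another slide, so that a slide block equals leaving it out. The slide block does not remove a difference between rows. All 9 listed proximal tubule markers, Lrp2, Cubn and Slc34a1 among them, were well above background on all 6 arrays. The number of animals, 3 per group, limits every value.

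The size of the difference varied widely among the transporters. Slc22a7 and Slc22a24 stood highest above their corn oil levels, at 5.23-fold and 3.34-fold. Slco1a6 and Slco4c1 followed at 2.27-fold and 1.71-fold. Slc22a6 and Slc22a8, the chief uptake carriers for small organic anions, had log2 changes of 0.14 and 0.06. In limma, 0 of the 10 passed an adjusted p of 0.05 over all genes tested, where 0.0255% of all genes did (3 of 11748). At an unadjusted p under 0.05, 5 of the 10 were higher in treated rats and 0 were lower, against 14.3% and 7.29% of all genes. Without corn oil replicate 1 this count was 3. For 5 of the 10 every treated array lay above every corn oil array, and for 0 below, against 20.1% and 10.1% of all genes. The median log2 change was 0.59 over the 10 genes and 0.04 over all genes tested. After quantile normalization the unadjusted counts were 4 higher and 1 lower, and after normexp correction 4 and 2. After scaling on spike-in controls they were 3 and 0. Over all genes those splits were 1679 higher and 856 lower as reported, 967 and 1120 after quantile normalization, 981 and 1075 after normexp and 120 and 2458 after spike-in scaling.

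**Figure D1:**
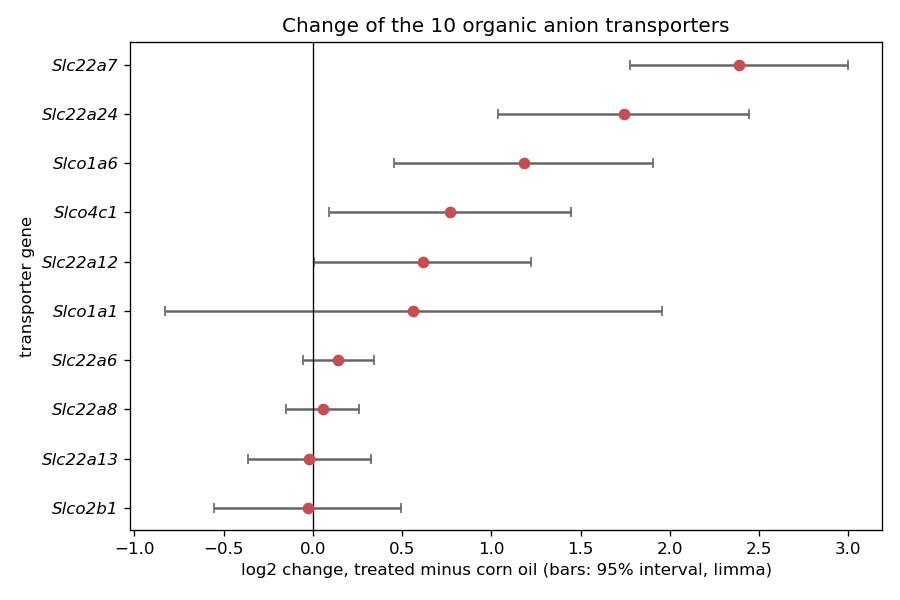
Log2 change of the brightest probe of each transporter, treated minus corn oil, with the 95% interval of the limma fit (n = 3 animals per group). Slc22a7 stands at 2.39 with an interval from 1.78 to 3.00, while the points of Slc22a6, Slc22a8, Slc22a13 and Slco2b1 lie near 0, with signs that turn under other scalings.

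Slc22a7 encodes OAT2, a carrier of small organic anions and cyclic nucleotides that is known in rodent kidney from the straight part (S3) of the proximal tubule. Its only probe, for transcript NM_053537, read -3.03, -3.39 and -3.77 on corn oil replicates 1, 2 and 3 and -1.18, -1.26 and -0.58 on treated replicates 1, 2 and 3. Every treated animal lay above every corn oil animal, and the gap between the groups was 1.77 on the log2 scale. The SD between animals was 0.37 in either group. The log2 change was 2.39 ± 0.25 (SE, n = 3 per group), which is 5.23-fold with a 95% interval from 3.43 to 7.98. The adjusted p was 0.0799 (limma), and 7 of the 11748 genes had a lower p. It was 0.0352 with trended and robust variances and 0.0468 without treated replicate 2, settings in which 69 of 11748 and 74 of 11818 genes passed, and ranged from 0.0352 to 0.321 over the alternatives. With the slide block, the log2 change was 2.39 (adjusted p = 0.249, limma). After normexp correction the log2 change was 1.72, below the 95% interval (1.78 to 3.00, log2), and after spike-in scaling 2.07. Of the 3 markers of the S3 segment, 2 were higher at an unadjusted p under 0.05 and 0 were lower, against 14.3% and 7.29% of all genes. That count was 1 (Slc7a13) after quantile normalization, normexp or spike-in scaling, and 1 without corn oil replicate 1 or 3 or treated replicate 1 or 3. Their summed intensity, relative to the 75th percentile, was 44.9 to 49.6 in corn oil rats and 61.0 to 99.2 in treated rats. That sum is led by its brighter probes, those of Ggt1 and Slc7a13. Slc7a13 had a log2 change of 1.21 ± 0.27, Ggt1 0.47 ± 0.18 and Slc5a1 0.33 ± 0.17. Their part in the values of Slc22a7 was not tested.

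Slc22a24, the rat gene long called Oat5, encodes a brush border carrier that exchanges sulfated steroids for dicarboxylates. Its brighter probe, for transcript NM_173302, read -0.39, 0.55 and -0.42 on the corn oil arrays and 1.44, 1.57 and 1.94 on the treated arrays. Corn oil replicate 2 was the high one of its group, and all treated animals still lay above it. The log2 change was 1.74 ± 0.29 (3.34-fold, 95% interval 2.05 to 5.45), with an adjusted p of 0.0946 in limma. The other probe of the gene gave 1.58. The slide block, which drops the high corn oil animal, gave 2.06 (adjusted p = 0.136, limma). Over the alternatives the adjusted p ranged from 0.0535 to 0.327.

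The 250 bases before the gene start are shown for these members with the largest log2 changes, for Slc22a8, whose log2 change was near 0, and for Slco4c1, which holds the only motif match found. They are RefSeq sequences of the GRCr8 assembly, on the strand of the gene, and lie at chr9:22045248-22045497 (plus strand) for Slc22a7, chr1:214394682-214394931 (minus strand) for Slc22a24, chr1:214927034-214927283 (plus strand) for Slc22a8 and chr9:104676463-104676712 (minus strand) for Slco4c1. Capitals mark a match to the antioxidant response element, the site of NRF2, in Slco4c1, and the others had no match to the motifs searched.
Slc22a7: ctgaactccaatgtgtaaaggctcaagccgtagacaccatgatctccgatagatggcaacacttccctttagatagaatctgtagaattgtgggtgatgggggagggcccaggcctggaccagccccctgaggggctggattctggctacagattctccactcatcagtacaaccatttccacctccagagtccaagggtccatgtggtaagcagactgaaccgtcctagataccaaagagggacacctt
Slc22a24: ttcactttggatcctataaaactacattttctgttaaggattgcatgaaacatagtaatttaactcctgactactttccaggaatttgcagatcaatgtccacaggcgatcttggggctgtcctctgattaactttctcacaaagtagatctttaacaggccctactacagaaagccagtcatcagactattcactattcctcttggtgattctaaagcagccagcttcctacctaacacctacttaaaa
Slc22a8: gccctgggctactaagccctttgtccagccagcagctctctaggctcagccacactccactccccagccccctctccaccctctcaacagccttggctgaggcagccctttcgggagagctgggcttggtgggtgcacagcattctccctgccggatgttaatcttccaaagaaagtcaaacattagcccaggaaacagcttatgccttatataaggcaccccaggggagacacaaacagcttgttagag
Slco4c1: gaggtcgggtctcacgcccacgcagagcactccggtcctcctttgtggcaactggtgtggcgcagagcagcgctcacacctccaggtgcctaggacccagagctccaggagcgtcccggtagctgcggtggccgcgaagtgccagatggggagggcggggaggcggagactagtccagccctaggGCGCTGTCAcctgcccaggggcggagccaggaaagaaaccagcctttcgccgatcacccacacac
Promoters were matched for 9 of the 10 members. The antioxidant response element TGACNNNGC, searched on both strands, was in 1 of the 9, Slco4c1, 65 bases before its start in the reverse orientation, and in 10.1% of all 33469 promoters of this length. The HNF4 repeat CAAAGTNCA, also searched on both strands, was in 0 of the 9 and in 1.06% of all. A match is a run of letters and was not tested as a binding site.

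Slc22a6 and Slc22a8 encode OAT1 and OAT3, which take small organic anions, such as para-aminohippurate and many drugs, from blood into the cell in exchange for dicarboxylates. They are neighbouring genes on rat chromosome 1. Slc22a6 read 8.22, 8.10 and 8.28 on the corn oil arrays and 8.31, 8.37 and 8.36 on the treated arrays. The treated animals lay above the corn oil animals by only 0.026, so that its lack of overlap rests on a very small gap. Its log2 change was 0.14 ± 0.08 (95% interval -0.06 to 0.34; adjusted p = 0.346, limma), and its dimmer probe gave -0.04. Slc22a8 read 7.84, 7.77 and 7.91 against 7.99, 7.85 and 7.85, and the groups overlapped. Its log2 change was 0.06 ± 0.08 (95% interval -0.15 to 0.26; adjusted p = 0.723, limma), and its other probe gave -0.09. The sign of both genes turned after quantile normalization, to -0.17 and -0.28, after normexp correction, to -0.22 and -0.32, and after spike-in scaling, to -0.18 and -0.26. Between animals of a group these genes varied little, with SDs from 0.03 to 0.09.

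**Figure D2:**
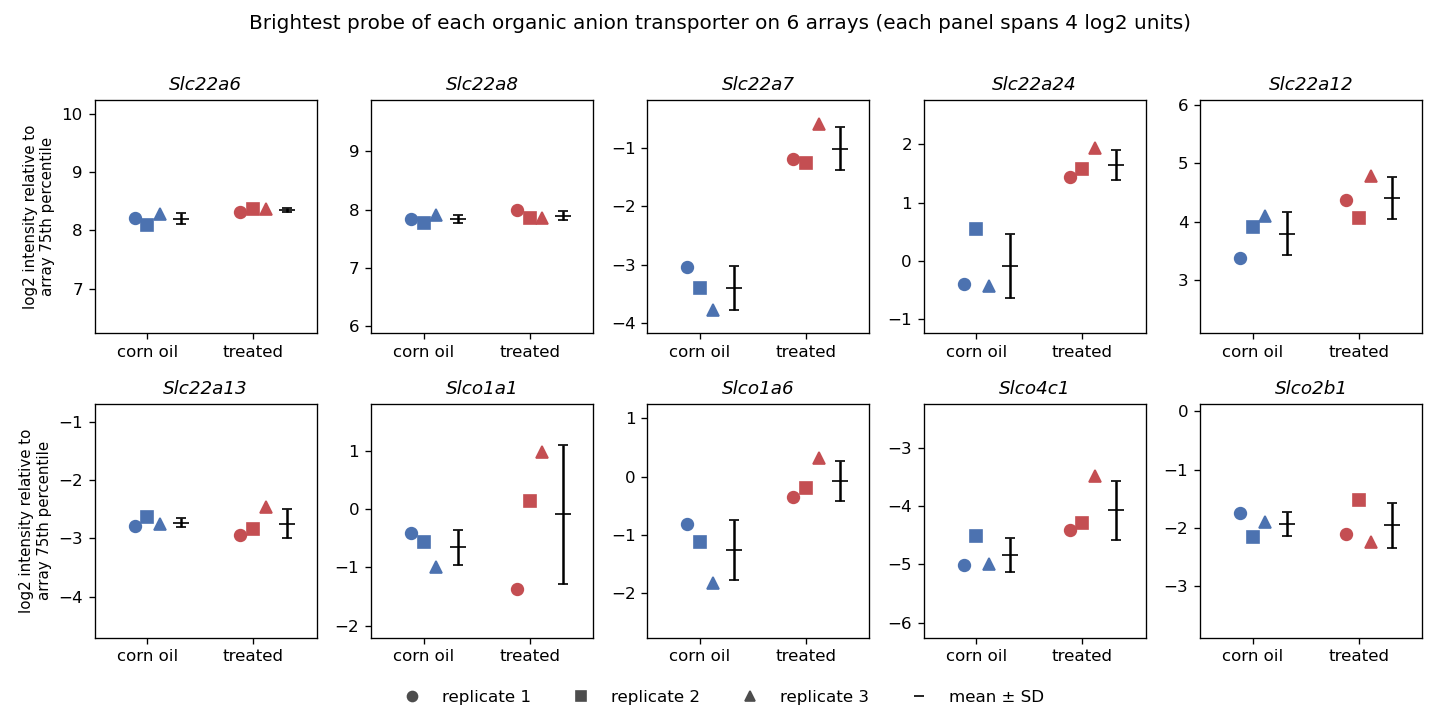
Log2 intensity of the brightest probe of each transporter on each array, relative to the 75th percentile of the array; points are animals, marked by replicate number, and bars give mean ± SD (n = 3). Every panel spans the same number of log2 units, so that the steps of Slc22a7 and Slc22a24 (2.39 and 1.74) can be set beside those of Slc22a6 and Slc22a8 (0.14 and 0.06), whose sign turns after quantile, normexp or spike-in scaling.

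Slc22a12 and Slc22a13 handle urate. Slc22a12 encodes URAT1, which reclaims urate from the tubule fluid, and Slc22a13 encodes OAT10, a nicotinate and urate exchanger. Slc22a12 read 3.38, 3.90 and 4.09 on the corn oil arrays and 4.37, 4.06 and 4.79 on the treated arrays. Treated replicate 2 lay just under corn oil replicate 3, so the groups overlapped. The log2 change was 0.62 ± 0.25 (1.53-fold; adjusted p = 0.227, limma), and the other probes of the gene gave 0.54 and 0.51 with the same order of animals within each group. After quantile normalization, normexp and spike-in scaling it was 0.45, 0.47 and 0.30, each with an unadjusted p above 0.05. For Slc22a13 the brightest probe read -2.79, -2.64 and -2.76 against -2.94, -2.84 and -2.46, and the groups overlapped with a log2 change of -0.02 ± 0.14 (adjusted p = 0.948, limma). Its probes disagreed: the next one gave 0.67, led by treated replicate 3 at -3.41 against -4.52 and -4.56 on the other treated arrays. The dimmest was not well above background on any corn oil array, and was so on 2 of the 3 treated arrays. Its measured signals were -7.11, -6.45 and -6.56 on the corn oil arrays and -4.72, -5.44 and -3.88 on the treated arrays. Treated replicate 2 was the treated array not well above background, so no fold is given. This dimmest probe was not tested.

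**Figure D3:**
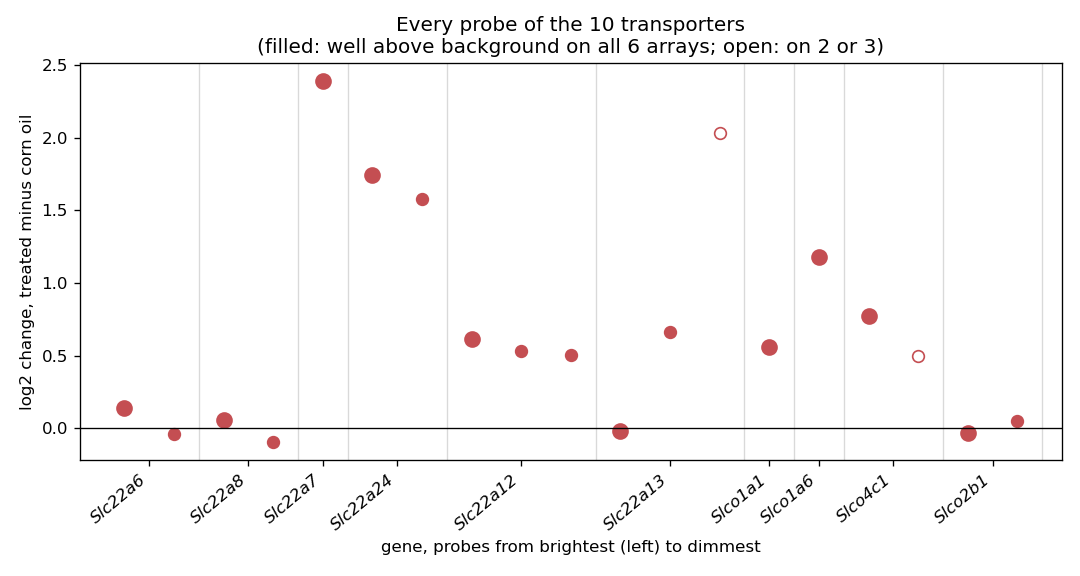
Log2 change, treated minus corn oil, of every probe of the 10 transporters, ordered within a gene from the brightest probe to the dimmest. Filled points were well above background on all 6 arrays and open points on 2 or 3; the probes of Slc22a24 (1.74 and 1.58) and of Slc22a12 (0.62, 0.54 and 0.51) lie close together, and those of Slc22a13 do not. The highest open point, of Slc22a13, plots measured signals of a probe not well above background on any corn oil array or on treated replicate 2.

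Among the OATPs, Slco1a6 and Slco1a1 lie in the Slco1a cluster of rat chromosome 4. Slco1a6, a kidney OATP long called Oatp5, read -0.82, -1.13 and -1.83 on the corn oil arrays and -0.35, -0.20 and 0.31 on the treated arrays. The groups did not overlap, with a gap of 0.46, and the log2 change was 1.18 ± 0.30 (2.27-fold, 95% interval 1.37 to 3.74; adjusted p = 0.132, limma). The slide block gave 1.25. Slco1a1, a brush border carrier of steroid conjugates and bile acids, read -0.41, -0.57 and -0.997 against -1.38, 0.13 and 0.97. Treated replicate 1 was below every corn oil animal and the other treated animals were above them all. Its SD was 1.19 among treated animals and 0.31 among corn oil animals, and its log2 change was 0.56 ± 0.57 (adjusted p = 0.593, limma). Without treated replicate 1 the change was 1.21, and without treated replicate 3 it was 0.032.

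Slco4c1 encodes a basolateral OATP that takes up digoxin and thyroid hormones. It read -5.02, -4.51 and -4.99 on the corn oil arrays and -4.42, -4.30 and -3.49 on the treated arrays. The groups were apart by 0.085 and treated replicate 3 was well above the rest. The log2 change was 0.77 ± 0.28 (1.71-fold; adjusted p = 0.195, limma), and 0.48 without treated replicate 3. It was 0.31 after normexp and 0.45 after spike-in scaling, where its unadjusted p was above 0.05. Its dimmer probe, well above background on 3 of the 6 arrays, gave 0.50 and was not tested. Slco2b1, a widely expressed carrier of sulfated steroids, read -1.74, -2.16 and -1.90 against -2.11, -1.52 and -2.24. Its groups overlapped fully, with a log2 change of -0.03 ± 0.22 (adjusted p = 0.948, limma) and 0.05 from its other probe. The sign of Slc22a13 and of Slco2b1 also turned after normexp and after median scaling.

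Treated replicate 3 had the highest value of the 6 arrays for 7 of the 10 transporters, while it was highest for 13.0% of all genes tested. Against the corn oil mean of each gene, the median over the 10 genes was 0.28, 0.48 and 1.18 on treated replicates 1, 2 and 3. It was 0.01, 0.09 and -0.09 on corn oil replicates 1, 2 and 3. Without treated replicate 3 the median log2 change over the 10 genes was 0.28.

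Of the related carriers outside the 10, a list of 12 symbols was taken, of which Slc22a19 and Slco1a2 proved to be older names of Slc22a24 and of Slco1a4 and Slco1a5. Of the list, 7 genes were tested; 0 passed over all genes (limma). At an unadjusted p under 0.05 there was 1 that was higher and 0 that were lower, against 14.3% and 7.29% of all genes. That gene was Slco1a5, the neighbour of Slco1a6, with a log2 change of 1.41 ± 0.30 (2.65-fold; adjusted p = 0.122, limma). It read -1.87, -2.11 and -2.73 on the corn oil arrays and -1.21, -0.95 and -0.33 on the treated arrays, the same order of animals as for Slco1a6. Cross-hybridisation between these close paralogs was not tested. Slc22a25, the neighbour of Slc22a8, had 0.24 ± 0.13 (-0.08 after spike-in scaling), and Slco1a4, the neighbour of Slco1a1, had -0.08 ± 0.27 (0.0078 after normexp). The median log2 change of these 7 genes was -0.01, against 0.04 over all genes.

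Pumps and voltage-driven carriers take anions out of the cell at the brush border. Of the 6 listed genes for luminal exit and urate handling, 0 passed over all genes (limma), 2 were higher at an unadjusted p under 0.05 and 0 were lower, against 14.3% and 7.29% of all genes. That count was 5 without treated replicate 2, where 12.1% of all genes were higher, 1 when corn oil replicate 1 or 2 or treated replicate 1 or 3 was left out, 1 with quantile normalization, and 0 with spike-in scaling. The median log2 change was 0.95. Abcc2 encodes the conjugate pump MRP2, and it read 1.79, 1.06 and 1.59 on the corn oil arrays and 3.87, 1.48 and 3.35 on the treated arrays. Abcc4, the pump MRP4, read 2.38, 2.37 and 2.55 against 4.29, 2.42 and 3.70. In both, on the brightest probe, treated replicate 2 lay within the range of the corn oil animals and the other treated animals far above it. The dimmest Abcc4 probe differed, with -1.70, -1.39 and -1.49 on the corn oil arrays and -0.14, -0.75 and -0.95 on the treated arrays. There treated replicate 2 lay above the corn oil animals. On the other Abcc4 probes it read 1.27 and 0.01, against 1.26 to 1.46 and 0.14 to 0.30 in corn oil rats.

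Slc17a3, a voltage-driven urate and organic anion carrier, read 3.74, 3.83 and 3.86 on the corn oil arrays and 5.48, 4.06 and 5.15 on the treated arrays. Slc17a1, its relative, read 1.67, 1.62 and 1.62 against 2.81, 2.03 and 2.65. Treated replicate 2 was again the low one of its group, here still above the corn oil animals. The log2 changes were 1.42 ± 0.61 for Abcc2, 1.04 ± 0.45 for Abcc4, 1.08 ± 0.35 for Slc17a3 and 0.86 ± 0.20 for Slc17a1, with adjusted p of 0.245, 0.247, 0.173 and 0.130 in limma. Without treated replicate 2 the changes were 2.13 for Abcc2, 1.56 for Abcc4, 1.502 for Slc17a3 and 1.09 for Slc17a1, and Slc17a3 (adjusted p = 0.0254) and Slc17a1 (adjusted p = 0.0246) passed in limma, in a setting where 74 of 11818 genes did (0.626%). Without treated replicate 1 they were 0.94 for Abcc2, 0.63 for Abcc4, 0.79 for Slc17a3 and 0.70 for Slc17a1. These 4 genes were singled out after their values were seen, and the order of animals was not that of the whole list: Abcg2 read 3.44, 3.67 and 3.76 on treated replicates 1, 2 and 3. Treated replicate 2 was also the low one of its group for Slc2a9 (2.13, 1.88 and 2.28), Slc22a12 and the erythroid gene Alas2 (2.70, 0.80 and 1.99). That array had the lowest 75th percentile of the 6 (563.6) and the smallest share of probes well above background (61.6%). The part of array brightness in these values was not tested. Treated replicate 2 was within 0.1 log2 units of treated replicate 1 for Slc22a7 and above it for Slc22a24, Slco1a6 and Slco1a5. The urate carrier Slc2a9 had 0.16 ± 0.12 and the brush border pump Abcg2 0.09 ± 0.13, and both were below 0 after spike-in scaling (-0.16 and -0.23).

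**Figure D4:**
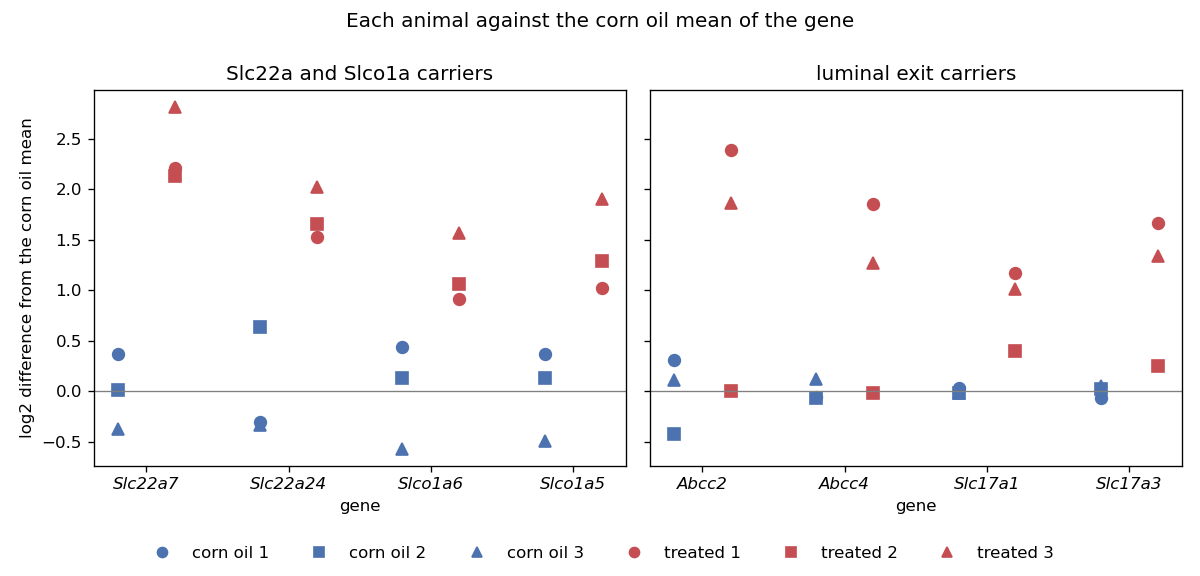
Log2 difference of each animal from the corn oil mean of the gene, for 4 Slc22a and Slco1a carriers (left) and 4 luminal exit carriers (right), chosen after their values were seen; blue points are corn oil and red points treated animals, marked by replicate number. The brightest probe of each gene is shown. The red square, treated replicate 2, stands with the other treated animals on the left and near the corn oil mean for Abcc2 and Abcc4 on the right. On the dimmest Abcc4 probe, not shown, it lay above the corn oil animals.

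The exchange carriers depend on anions brought in with sodium. Of 6 listed genes for this supply, 0 passed over all genes (limma). At an unadjusted p under 0.05 there was 1 higher, Slc13a3, and 1 lower, Slc5a12, against 14.3% and 7.29% of all genes. The counts were 0 and 2 after quantile normalization, normexp or spike-in scaling, and 0 and 0 without corn oil replicate 2 or treated replicate 3. Without corn oil replicate 1 they were 0 and 2, and without corn oil replicate 3 or treated replicate 2 they were 1 and 0. Slc13a3, the basolateral dicarboxylate carrier NaDC3 that supplies OAT1 and OAT3 with their exchange partner, read 8.56, 8.47 and 8.68 on the corn oil arrays and 8.73, 8.85 and 8.90 on the treated arrays. Its groups did not overlap, and the log2 change was 0.25 ± 0.09 (adjusted p = 0.198, limma), but it was -0.05 after normexp and -0.065 after spike-in scaling. Slc5a12, a carrier of lactate, read 2.09, 2.35 and 2.13 against 2.06, 1.43 and 1.57, a log2 change of -0.50 ± 0.18 (adjusted p = 0.191, limma). Atp1b1, a sodium pump subunit, had 0.19 ± 0.08, which turned to -0.14 after quantile normalization, -0.20 after normexp and -0.13 after spike-in scaling.

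Scaffold proteins and transcription factors are known to act on these carriers. Of 10 tested genes on that list 0 passed in limma. At an unadjusted p under 0.05, 0 were higher and 0 lower, against 14.3% and 7.29% of all genes. Hnf4a had a log2 change of 0.16 ± 0.14, the scaffold Pdzk1 had -0.04 ± 0.11 and Nfe2l2, which encodes NRF2, had 0.01 ± 0.07. After spike-in scaling Hnf4a was -0.16 and Nfe2l2 -0.31. The list had 1 lower gene at that p after quantile normalization (Pdzk1, -0.30), 2 after normexp, 1 after spike-in scaling and 1 without corn oil replicate 3. Over all genes the lower ones in these settings were, in that order, 1120, 1075 and 2458 of 11748 and 556 of 11898. Several rodent renal carriers are known to be set by hormones. Of 6 tested receptor and STAT5 genes 0 passed in limma. At an unadjusted p under 0.05, 0 were higher and 0 lower, against the same 14.3% and 7.29%. The growth hormone receptor Ghr had 0.11 ± 0.10, and -0.21 after spike-in scaling.

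Summed marker levels, relative to the 75th percentile, differed between the groups for some segments and cells. The 9 whole proximal tubule markers summed to 740.6 to 778.3 in corn oil rats and 822.5 to 851.2 in treated rats. That sum is led by its brighter probes, those of Slc34a1 (log2 change 0.19 ± 0.08) and Slc3a1 (0.42 ± 0.10) among them. At an unadjusted p under 0.05, 2 were higher (Slc3a1 and Mme) and 2 were lower, against 14.3% and 7.29% of all genes. The lower ones were Lrp2 (-0.34 ± 0.10) and Cubn (-0.52 ± 0.21). The counts higher and lower were 1 and 5 after quantile normalization or normexp and 0 and 3 after spike-in scaling. Median log2 changes were -0.28, -0.31 and -0.30 against 0.01 as reported. Of all 11748 genes, 967 were higher and 1120 lower after quantile normalization, 981 and 1075 after normexp, and 120 and 2458 after spike-in scaling. The sums were not computed on those scales. The 3 markers of the S1 and S2 segments summed to 441.6 to 470.8 against 445.6 to 521.1. Erythroid markers summed to 139.3 to 200.2 against 257.4 to 381.9. Of these, 3 of 3 were higher without overlap, against 20.1% of all genes. That count was 2 after quantile normalization or normexp and 1 after spike-in scaling. The 2 tested markers of the thick ascending limb summed to 262.9 to 287.9 against 346.7 to 443.7, led by the bright probe of Umod (0.45 ± 0.12). Cldn16, the other one, had 0.35 ± 0.19 and its groups overlapped. After quantile normalization, normexp or spike-in scaling neither had an unadjusted p under 0.05. The 2 tested markers of the distal convoluted tubule summed to 22.0 to 28.5 against 16.2 to 19.8. Sums for collecting duct, podocyte, endothelium, leukocyte, fibroblast and hepatocyte markers overlapped between the groups. Their part in the transporter values was not tested.

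Gene patterns most like those of the transporters were taken by Pearson correlation of log2 values over the 6 arrays, among 11065 other genes well above background on all of them. For Slc22a7, the member with the lowest p, these were Trappc6b (r = 0.996), Noct (r = 0.996) and Gclc (r = 0.996). Gclc, the catalytic subunit of glutathione synthesis, read 5.11, 4.85 and 4.54 on the corn oil arrays and 6.33, 6.15 and 6.90 on the treated arrays. Like Slc22a7 it was highest in treated replicate 3 and lowest in corn oil replicate 3. For Slco2b1, which had the lowest p among members with a negative change, they were Ap2a2 (r = 0.996), Exoc6 (r = 0.985) and Or3a4 (r = 0.984), all with log2 changes near 0. The arrays share a group structure and the best of many genes were taken, so these values describe and test nothing.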

How the data were processed

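Per the labels, renal cortex RNA carried Cy3 on 1-colour Agilent arrays. The deposited intensity per spot came from Feature Extraction 10.7.1.1, per the file headers (10.7 per the submitters' processing notes), and its processed form is background-subtracted. The deposited value table holds, as a ratio, intensity over the 75th percentile of the array; its columns matched scanner files of other replicate numbers of their own group (SD of the log2 difference 0.0002, against 0.264 to 0.468 for their own number), and replicate numbers follow the scanner files. The array annotation and RefSeq table (GRCr8) differ in build, so no probe positions are given; the printed promoter positions and sequences are RefSeq's.

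Values were log2 processed intensity minus the 75th percentile. Of 61657 probes, 64 flagged as outliers were left out, and 40894 that were well above background on all arrays of a group were kept. Groups were compared with limma 3.58.1 (R 4.3.3), with Benjamini-Hochberg adjustment over 11748 genes and a threshold of 0.05, tested on simulated data. Replicates are separate animals, per the series design. Replicate numbers did not pair samples (same-number correlations 0.0065, -0.050 and -0.032). Members, lists and tests were chosen with earlier results of these data known. All members are named, list genes as needed, and 3 genes most like each of 2 members. Alternatives covered background correction, scaling, the deposited table, filters, blocks, probe averaging, variance model and leaving out each array.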

Additional observations from a re-analysis of the deposited data

How the results depend on the processing

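Across 17 alternatives the log2 change kept its sign for 6 of the 10 transporters (Slc22a7, Slc22a24, Slc22a12, Slco1a1, Slco1a6 and Slco4c1). The deposited table, the filters, the replicate block and the variance model gave nearly the same log2 changes as reported, so they say little about the signs. The slide block gave those found without corn oil replicate 2. The other transporters turned as follows, and the cause was not tested. Slc22a6 was -0.22 after normexp, -0.17 with quantile normalization and -0.18 with spike-in scaling. Slc22a8 was -0.32, -0.28 and -0.26 there and -0.020 as the mean over probes. Slc22a13 was 0.085 after normexp, 0.015 after quantile normalization, 0.012 after median scaling, 0.027 with the slide as a block, 0.32 as the mean over probes and -0.16 to 0.0792 when 1 array was left out. Slco2b1 was 0.040 after normexp, 0.0021 after median scaling, 0.011 as the mean over probes and -0.25 to 0.11 when 1 array was left out. The count of transporters past the threshold was 1 (Slc22a7) with trended and robust variances, and 0 to 1 when 1 array was left out. The count at an unadjusted p under 0.05 was 3 after spike-in scaling, 3 without corn oil replicate 1 and 3 to 5 over the arrays left out, and the count without overlap was 2 and 5 to 7. The median over the 10 ranged from 0.28 to 0.79 over the arrays left out. Spike-in scaling shifted the median of all genes by -0.32. It moves every gene on an array by the same amount, so the transporter median relative to all genes stayed at 0.55 by construction.

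The number of all genes past the threshold was 3; it was 4 after normexp or quantile normalization, 8 after spike-in scaling, 69 with trended and robust variances, and 0 with no filter, a slide block or the mean over probes, and 0 to 74 when 1 array was left out (0 without any of the corn oil arrays, 14 without treated replicate 1 and 74 without treated replicate 2). With the replicate block 0 genes passed and 2121 had an unadjusted p under 0.05, of which 5 were transporters; Slc22a7 had an adjusted p of 0.223 in limma, and 1 of 3 corn oil samples correlated best with the treated sample of its own number. With 3 animals per group, the 95% intervals of Slc22a6, Slc22a8, Slc22a13, Slco1a1 and Slco2b1 span changes in both directions. Dim probes such as those of Slco4c1 lie near background.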
